A study of Mus musculus with 10 samples.

Results

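Cyclins are the regulatory subunits that switch on cyclin-dependent kinases, and the 10 genes described here are those that act from G1 to mitosis. They are Ccnd1, Ccnd2 and Ccnd3 of the D type, Ccne1 and Ccne2 of the E type, Ccna2 of the A type, Ccnb1 and Ccnb2 of the B type, and Ccnf and Ccng2. They were taken from a fixed list of symbols and found by their Ensembl identifiers, and make up 10 of the 45232 entries of the data. D-type cyclins respond to growth factors and partner the kinases Cdk4 and Cdk6 in G1. E-type cyclins partner Cdk2 at entry into S phase, cyclin A2 acts through S and G2, and B-type cyclins partner Cdk1 in mitosis. In quiescent cells the DREAM complex, of which the MuvB core with Lin37 is a part, is known to repress many genes of S phase and mitosis.

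RNA was sequenced after depletion of ribosomal RNA from NIH3T3 cells, an immortalized mouse fibroblast line, that had been starved for 60 h in medium with 0% serum. All cells in either group carried InDels in Lin37, made with a Cas9 nickase, and each line was a single-cell clone, mutated either at exon 4 or at exon 6. Both groups also held a doxycycline-inducible episome that expresses GFP and was kept by hygromycin selection, and by the study's methods induced cells were sorted for GFP. In KO cells the episome expressed luciferase and in rescue cells wild-type Lin37, so that the rescue is re-expression from an inducible transgene and not the parental line. By the study's methods wild-type Lin37 was detected already without induction. The exon 4 clone had 2 biological replicates of KO and 2 of rescue. The exon 6 clone had 3 libraries of each, of which the library numbered 3 is labelled a technical replicate of biological replicate 2. The comparison asks how the level of each cyclin gene in starved cells differs between KO and rescue cells of the same clone. Each exon is represented by 1 clone, so that the site of the mutation and the history of the clone cannot be told apart.

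The values are RPKM, reads scaled by gene length and by library total, so that levels can be set side by side between genes. They were rescaled so that the typical gene has the same level in every library, and the technical replicates were averaged, which leaves 4 KO and 4 rescue replicates. From the steps between low values the libraries would hold between 21946910 and 91119067 reads, but between 21.8% and 32.3% of the low values were whole multiples of such a step to within 0.02 reads, and the depths are estimates. The cells expressed the fibroblast markers, of which 9 of 9 had a mean of at least 1 RPKM, with Fn1 the most abundant at 195 RPKM. Of the epithelial, endothelial, immune and muscle markers 0 reached that mean, and the highest was Cd68 at 0.915 RPKM. Summed over its markers, the highest of these lists came to 1.64 RPKM in a replicate, for the immune markers, while the fibroblast markers summed to between 540 and 964 RPKM.

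Lin37 itself spans bases 30555441 to 30559838 of chromosome 7 in GRCm38. Its rescaled level was 0.285 and 0.284 RPKM in the KO replicates of the exon 4 clone, and 0.417 and 0.274 RPKM in those of the exon 6 clone. Rescue values were 2.54 and 2.12 RPKM in the exon 4 clone and 4.92 and 4.76 RPKM in the exon 6 clone. Every KO replicate lay below every rescue replicate, and rescue levels were higher in the exon 6 than in the exon 4 clone. Gm8802, noticed after its values were seen, shares 27.3% of its 31-base stretches with Lin37 and was 0.431 RPKM in KO against 26.8 RPKM in rescue cells. Reads from the episome cannot be told apart from those of the locus in these values.

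The exon 6 rescue library numbered 3 stood apart from library 2, which was made from the same biological replicate. For Ccna2 the rescaled level was 0.0256 RPKM in library 2 and 0.308 RPKM in library 3, and for Ccnb2 it was 0.0246 and 0.213 RPKM. Ccne2 was 0.119 and 0.309 RPKM, while Ccnb1 was 0.00840 and 0.00686 RPKM. In the KO pair, Ccnb1 was 0.0950 RPKM in library 2 and 0.260 RPKM in library 3, and Ccnd1 was 1.93 and 3.20 RPKM. The cause of these differences was not tested. Results on Ccnd1, Ccne2, Ccna2, Ccnb1 and Ccnb2 are therefore also given without the libraries numbered 3.

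**Figure D1:**
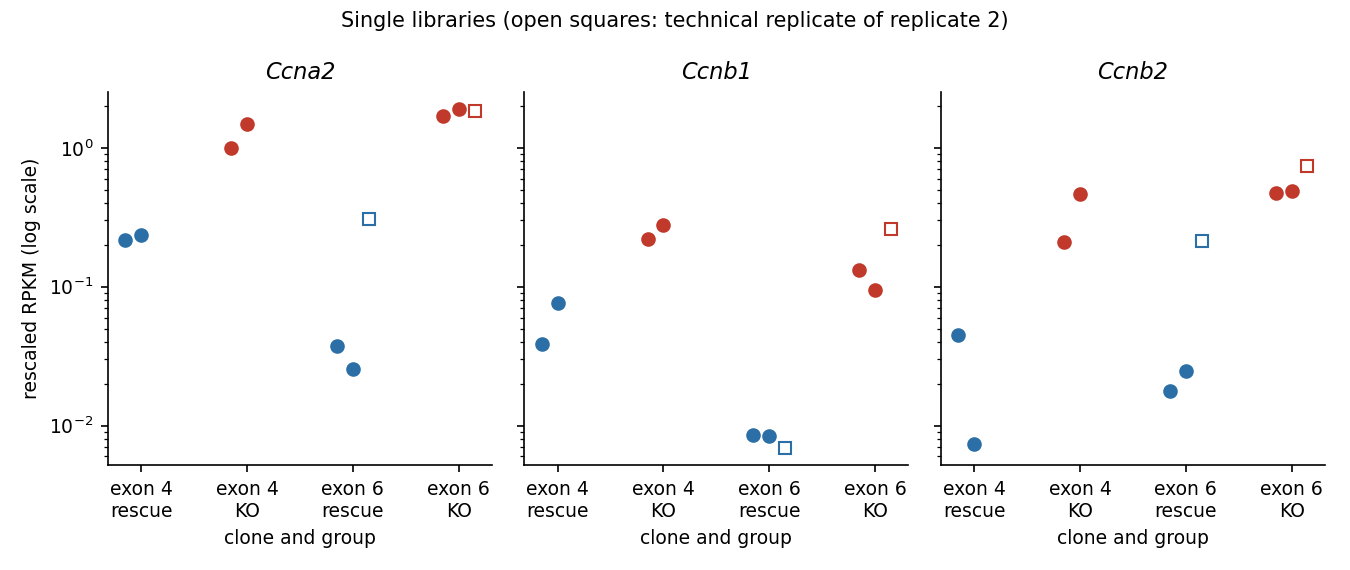
Rescaled RPKM (log axis) of Ccna2, Ccnb1 and Ccnb2 in each of the 10 libraries, by clone and group, with rescue in blue, KO in red and the technical replicate as an open square. In exon 6 rescue cells the open square for Ccna2 sits at 0.308 RPKM, above 0.0377 and 0.0256 RPKM in the other libraries, and still below the KO libraries.

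Of the RNA of these 10 genes, most in starved rescue cells was of the D type, while Ccng1, a cyclin outside the 10 that was picked out after its values were seen, had a mean above each of them, at 17.5 RPKM. Ccnd2 was highest of the 10 with 9.63 ± 0.365 RPKM (SD, n = 4), followed by Ccnd1 with 2.68 ± 1.64 RPKM and Ccng2 with 1.49 ± 0.179 RPKM. Ccnd2 lay above every replicate of the next gene, while the ranges of Ccnd1 and Ccng2 overlapped. Ccnd3 came next with 0.654 ± 0.112 RPKM, then Ccnf with 0.365 ± 0.122, Ccne1 with 0.268 ± 0.0692 and Ccne2 with 0.265 ± 0.130 RPKM. Ccna2 stood at 0.164 ± 0.0891 RPKM, Ccnb2 at 0.0472 ± 0.0503 and Ccnb1 at 0.0328 ± 0.0323 RPKM. From Ccnd3 down to Ccnb1, each gene overlapped its neighbour in this order. In KO cells Ccnd2 and Ccnd1 were still the highest of the 10, with 7.60 ± 1.20 and 3.12 ± 0.816 RPKM (SD, n = 4), and Ccng2 followed with 1.65 ± 0.109 RPKM. Next came Ccna2 at 1.51 ± 0.380 RPKM, which overlapped Ccng2 above it and was clear of Ccnf below it.

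**Figure D2:**
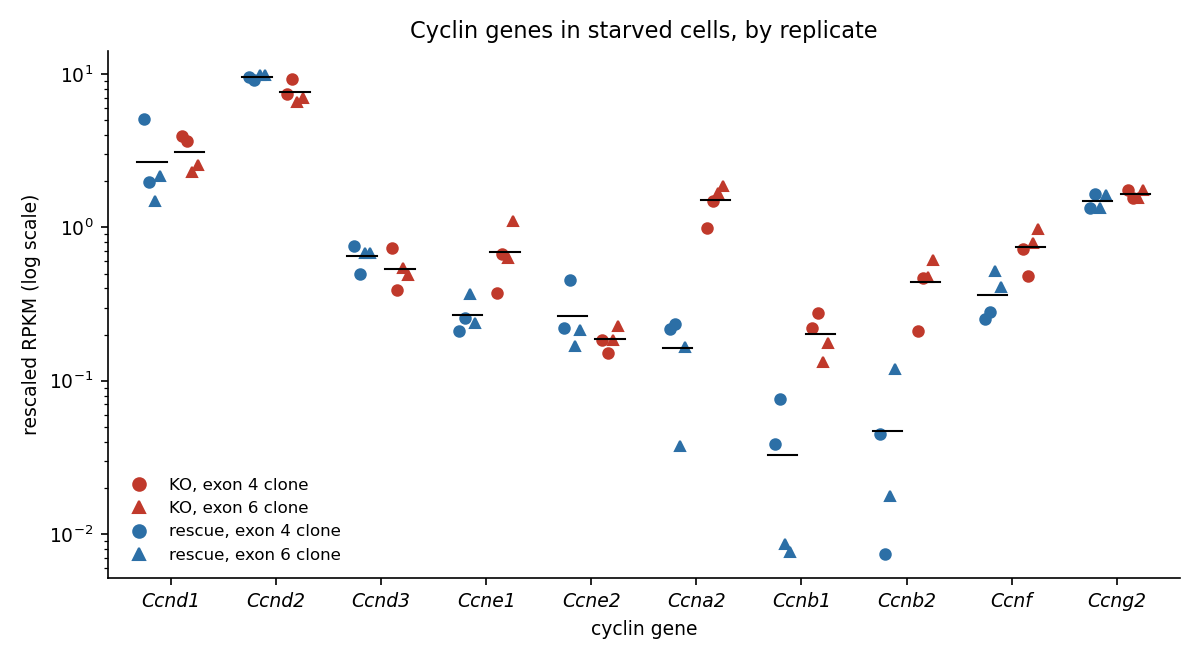
Rescaled RPKM (log axis) of the 10 cyclin genes in each biological replicate, rescue in blue and KO in red, with circles for the exon 4 clone, triangles for the exon 6 clone and a black line at the mean of 4. Ccne1, Ccna2, Ccnb1 and Ccnb2 have KO replicates that all lie above the rescue replicates, and the D-type genes have overlapping groups. Ccnb1 and Ccnb2 had rescue means under 0.1 RPKM and reached the minimum for testing only through the KO cells. How many of all genes have groups that lie apart was not counted, so nothing is read from how many cyclins do.

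Over both clones, 2 of the 10 cyclin genes passed the test as higher in KO cells and 0 as lower. The test used limma with log2(RPKM + 0.5) values and a term for clone, and a gene was called when its p, adjusted by Benjamini-Hochberg over every gene with a mean of 0.1 RPKM or more, was under 0.05. Of all 16866 genes tested, 1.61% were called higher and 0.083% lower, which is 14 lower genes, or 27 with the replicate block. At an unadjusted p under 0.05, 5 of the 10 were higher and 1 was lower in limma, against 5.06% and 3.72% of all genes. These shares depend on the processing, since 7171 of 16349 genes were higher and 70 lower at that p with the RPKM as deposited, and 1031 and 1100 of 16866 with the replicate block. The genes called were Ccna2 and Ccnb2. Ccnb1 and Ccnb2 reached the minimum only through the KO cells, since their rescue means were below 0.1 RPKM. Neither the number tested nor the call of Ccnb2 is therefore support for a difference. Nor is the count of 5 higher genes at an unadjusted p under 0.05 in limma, since it includes both Ccnb1 and Ccnb2. In the exon 6 clone 1 cyclin gene was called higher, Ccna2, against 1.03% of all genes higher and 0.0296% lower. In the exon 4 clone it was again Ccna2 and no other cyclin, against 0.599% higher and 0.0237% lower, and 0 genes were called with that clone fitted by itself, where 426 were higher and 342 lower at an unadjusted p under 0.05 (limma). Because 0.5 is added before taking logs, log2 values of genes far under that level are smaller than the ratios of their means. In bulk RNA, fewer cells in a given state and less RNA per cell cannot be told apart. The labels name the replicates as biological and say no more of how they were grown, so that p-values measure the spread between these samples.

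Among the D-type genes, Ccnd1, the cyclin best known as a target of growth factor signalling, ranged from 2.29 to 3.97 RPKM in KO and from 1.48 to 5.11 RPKM in rescue replicates. The highest and the lowest of the 8 values were both from rescue cells, and the groups overlapped fully. Its log2 difference was 0.28, with a 95% interval from -0.25 to 0.81, and KO was higher in 3 of 4 pairs of the same clone and replicate number. It was 0.15 without the libraries numbered 3, 0.53 without exon 4 rescue replicate 1 and 0.056 without exon 4 rescue replicate 2. Ccnd2 was 7.48 and 9.31 RPKM in exon 4 KO and 6.61 and 6.99 RPKM in exon 6 KO replicates. In rescue cells it was 9.52 and 9.16 RPKM in the exon 4 clone and 9.92 and 9.91 RPKM in the exon 6 clone. The exon 6 KO replicates were the lowest of the 8, and 1 exon 4 KO replicate lay within the rescue range. Its log2 difference was -0.33 with a standard error of 0.11, lower in KO cells in 3 of 4 pairs, and missed the threshold with an adjusted p of 0.368 in limma after Benjamini-Hochberg correction. Ccnd3 ranged from 0.391 to 0.737 RPKM in KO and from 0.494 to 0.754 RPKM in rescue replicates. It was lower in KO cells in 4 of 4 pairs, while the groups overlapped, and the log2 difference was -0.16 with a standard error of 0.13. With the RPKM as deposited the differences of Ccnd2 and Ccnd3 turn positive, where the median over all genes shifts from -0.03 to 0.64. Relative to that shifted median Ccnd1 stood at 0.56, Ccnd2 at -0.00 and Ccnd3 at -0.21. The pseudogene Ccnd3-ps, picked out after its values were seen, holds 34.5% of its 31-base stretches in common with Ccnd3 and was 2.10 RPKM in KO against 2.72 RPKM in rescue cells, and its part in the Ccnd3 values was not tested.

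Of the E type, Ccne1, which with Cdk2 drives entry into S phase, was 0.375 and 0.670 RPKM in exon 4 KO and 0.630 and 1.11 RPKM in exon 6 KO replicates. In rescue cells it was 0.211 and 0.257 RPKM in the exon 4 clone and 0.368 and 0.237 RPKM in the exon 6 clone. Each KO replicate lay above each rescue replicate, though the lowest KO value, 0.375 RPKM, was close to the highest rescue value. The means differed 2.59-fold, with 0.696 ± 0.305 RPKM in KO against 0.268 ± 0.0692 RPKM in rescue cells (SD, n = 4 each). Its log2 difference of 0.61, with a standard error of 0.15 and higher KO values in 4 of 4 pairs, missed the threshold at an adjusted p of 0.144 in limma after Benjamini-Hochberg correction. It passed with the RPKM as deposited, where it stood 0.47 above the shifted median of all genes, and with technical replicates kept separate, which counts a biological replicate more than once. Neither pass is taken as support for a difference, and over the alternatives this adjusted p ran from 0.00348 to 0.548 (limma, Benjamini-Hochberg). Ccne2, the other E-type gene, did not share this pattern and ranged from 0.151 to 0.226 RPKM in KO and from 0.168 to 0.457 RPKM in rescue replicates. The groups overlapped, KO was higher in 2 of 4 pairs, and the log2 difference was -0.14, with a 95% interval from -0.44 to 0.16, which turns to 0.21 with the RPKM as deposited and is -0.42 relative to their median. Without the libraries numbered 3 it was -0.085.

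Ccna2 encodes cyclin A2, needed for DNA replication and for progress through G2, and its gene spans bases 36564865 to 36572150 of chromosome 3 (GRCm38, minus strand). It was 0.992 and 1.48 RPKM in exon 4 KO and 1.69 and 1.87 RPKM in exon 6 KO replicates. Rescue values were 0.218 and 0.235 RPKM in the exon 4 clone, and 0.0377 and 0.167 RPKM in the exon 6 clone. All KO replicates lay far above all rescue replicates, with the lowest KO value more than 4 times the highest rescue value. The means differed 9.18-fold, and Ccna2 rose by 1.58 on the log2 scale with a standard error of 0.17, higher in 4 of 4 pairs (adjusted p = 0.00155 by limma and Benjamini-Hochberg). It was called over both clones in each of the 18 alternatives in which it was tested. The exon 6 rescue levels rest on few reads, an estimated 8.49, 2.95 and 60.9 in libraries 1, 2 and 3. The size of the ratio is therefore uncertain. It was 11.8-fold without the libraries numbered 3, and with all libraries 5.46-fold in the exon 4 clone and 17.4-fold in the exon 6 clone. In a joint fit that shares the spread of both clones, Ccna2 was higher by 1.24 in the exon 4 clone and by 1.93 in the exon 6 clone, each with a standard error of 0.18 and in 2 of 2 pairs (adjusted p = 0.0377 and 0.00487 by limma and Benjamini-Hochberg). Without the libraries numbered 3 these were 1.24 and 2.11, and over both clones 1.67. With the exon 4 clone fitted by itself, the number of genes tested also changed, from 16866 to 18751. A loss there therefore cannot be put down to the separate fit alone. The same difference of 1.24 then had an adjusted p of 0.359, and the exon 4 call was lost (limma, Benjamini-Hochberg). It was lost in 12 of 18 alternatives, the others being a pseudocount of 0.1 (adjusted p = 0.0722), no minimum level (0.127), the RPKM as deposited (0.163) and leaving out any of the 8 replicates (0.0670 to 0.147), where the lowest over all 18 was 0.0196 (limma, Benjamini-Hochberg). The exon 6 call was lost in 4 of 18, with no minimum level (adjusted p = 0.0540) and without exon 6 KO replicate 1 (0.0677), exon 6 KO replicate 2 (0.0950) or exon 6 rescue replicate 1 (0.0716), where the lowest over all 18 was 2.02e-05 (limma, Benjamini-Hochberg). On the other strand, LTO1 shares 1100 exon bases with Ccnd1, Ints8 609 with Ccne2 and Exosc9 510 with Ccna2, with smaller overlaps of 361 bases between Bysl and Ccnd3 and of 368 and 372 bases between 9330179D12Rik or Gm43126 and Ccnd2. Whether reads were counted by strand is not stated. LTO1 was 0.507 RPKM in KO against 0.640 RPKM in rescue cells and Ints8 1.20 against 1.42 RPKM, the latter above Ccne2 itself in both groups. Bysl was 1.68 against 1.81 RPKM, above Ccnd3 itself, and 9330179D12Rik 0.145 against 0.167 RPKM. Exosc9 was 0.787 RPKM in KO against 0.964 RPKM in rescue cells, above Ccna2 itself in rescue but not in KO cells. The part of such neighbours in the cyclin values was not tested.

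The B-type genes, whose products trigger mitosis with Cdk1, had the lowest mean levels of the 10 in rescue cells. Ccnb2 spans bases 70407692 to 70421547 of chromosome 9 and Ccnb1 bases 100778650 to 100786570 of chromosome 13 (GRCm38, both minus strand). Ccnb2 was 0.211 and 0.467 RPKM in exon 4 KO and 0.476 and 0.617 RPKM in exon 6 KO replicates. In rescue cells it was 0.0447 and 0.00741 RPKM in the exon 4 clone and 0.0177 and 0.119 RPKM in the exon 6 clone. The groups did not overlap, and the highest rescue value was the one that rests on library 3. The means differed 9.39-fold, and the log2 difference was 0.77 with a standard error of 0.14, higher in 4 of 4 pairs (adjusted p = 0.0277 by limma and Benjamini-Hochberg). Ccnb2 reached the minimum only through the KO cells, so this call is a description and no support for a difference. Without the libraries numbered 3 the log2 difference was 0.79, while the means differed 17.4-fold, with 0.412 RPKM in KO against 0.0236 RPKM in rescue cells. The rescue levels rest on few reads, an estimated 2.51 and 0.390 in the exon 4 libraries and 1.49, 1.06 and 15.8 in the exon 6 libraries, so that the size of this ratio is uncertain. Without exon 6 rescue replicate 2 altogether it was 19.0-fold. The call was lost with no minimum level (adjusted p = 0.172), with no clone covariate (0.0509) and on leaving out any replicate but exon 4 KO replicate 1 (0.0556 to 0.152), where the lowest over all alternatives was 0.000149 (limma, Benjamini-Hochberg). Within the clones the log2 differences were 0.66 for exon 4 and 0.88 for exon 6, neither of which passed.

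Ccnb1 was 0.221 and 0.276 RPKM in exon 4 KO and 0.132 and 0.177 RPKM in exon 6 KO replicates. In rescue cells it was 0.0388 and 0.0761 RPKM in the exon 4 clone and 0.00860 and 0.00763 RPKM in the exon 6 clone. The groups did not overlap, and the exon 6 rescue replicates were the lowest of the 8. These low levels rest on very few reads, an estimated 2, 1 and 1.4 in the exon 6 rescue libraries against 42.3, 15 and 64.9 in the exon 6 KO libraries. The means differed 6.14-fold, and 11.0-fold without exon 4 rescue replicate 2, so that the size of this ratio is uncertain. The log2 difference of 0.39, with a standard error of 0.10 and higher KO values in 4 of 4 pairs, missed the threshold (adjusted p = 0.157 by limma and Benjamini-Hochberg). Without the libraries numbered 3 it was 0.35. With a pseudocount of 0.1 it was 1.19 for Ccnb1 and 1.88 for Ccnb2. Ccnb1 passed with the RPKM as deposited, where it stood 0.02 above the shifted median of all genes, so that this pass is not taken as support for a difference. Ccnb1 has related pseudogenes, and 78.7% of the 31-base stretches of the pseudogene Ccnb1-ps and 61.7% of those of Gm12856 also occur in Ccnb1 transcripts, and both were picked out after their values were seen. Ccnb1-ps was 0.508 RPKM in KO against 0.0871 RPKM in rescue cells, a level under the minimum. Gm12856 was 0.307 RPKM in KO against 0.0729 RPKM in rescue cells, and which of the copies the reads came from was not tested.

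Ccnf encodes cyclin F, an F-box protein that marks other proteins for destruction and binds no cyclin-dependent kinase. It was 0.721 and 0.485 RPKM in exon 4 KO and 0.790 and 0.972 RPKM in exon 6 KO replicates. Rescue values were 0.251 and 0.282 RPKM in the exon 4 clone and 0.517 and 0.407 RPKM in the exon 6 clone. KO was higher in each pair, but the exon 4 KO value of 0.485 RPKM lay below the exon 6 rescue value of 0.517 RPKM. The log2 difference was 0.52 with a standard error of 0.11, and 0.52 in each clone, and missed the threshold with an adjusted p of 0.0570 in limma after Benjamini-Hochberg correction. It passed in 4 of 18 alternatives, with a pseudocount of 0.1 (adjusted p = 0.0463), without exon 4 KO replicate 2 (0.0485), with technical replicates kept separate, and with the RPKM as deposited, where it stood 0.46 above the shifted median of all genes, and over all 18 this p ran from 0.00912 to 0.339 (limma, Benjamini-Hochberg). Ccng2, an atypical cyclin known for its expression in arrested cells, ranged from 1.55 to 1.75 RPKM in KO and from 1.33 to 1.66 RPKM in rescue replicates. The groups overlapped, and the log2 difference was 0.11, with a 95% interval from -0.11 to 0.34.

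**Figure D3:**
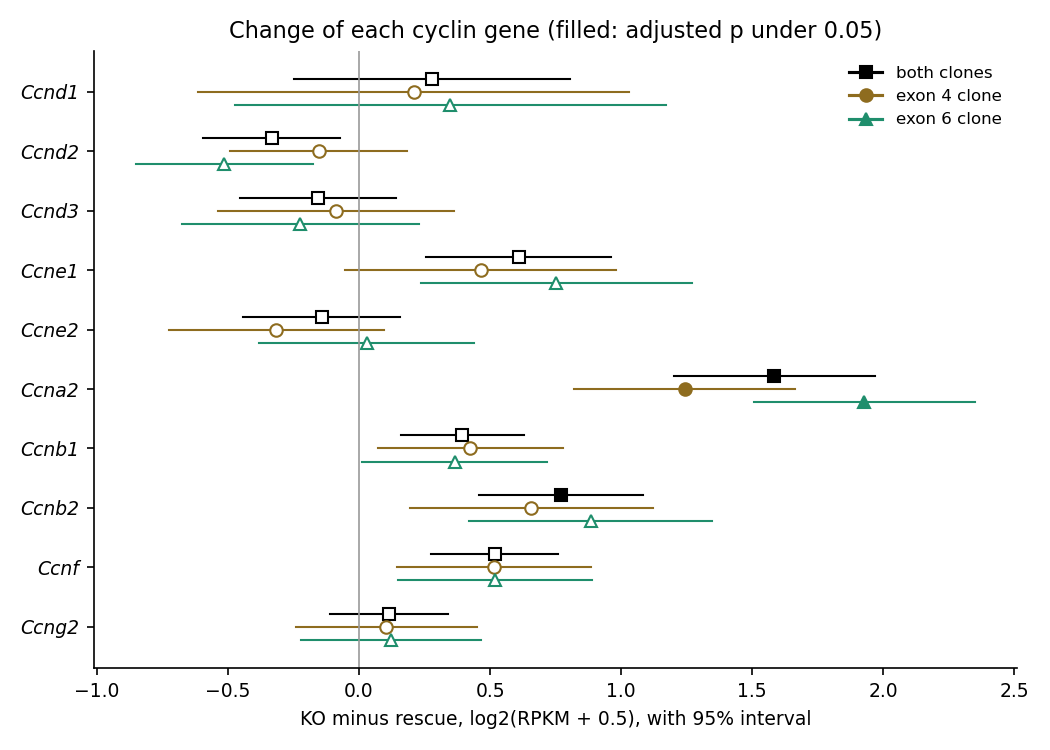
Log2 change of each cyclin gene, KO minus rescue, with its 95% interval, over both clones (squares), in the exon 4 clone (circles) and in the exon 6 clone (triangles), with filled symbols for an adjusted p under 0.05 from limma. Ccna2 is called in all 3 comparisons, though not in the exon 4 clone fitted by itself. Ccnb2 is called over both clones, having reached the minimum only through the KO cells. The D-type genes lie between -0.33 and 0.28 over both clones, of which Ccnd2 and Ccnd3 turn positive with the RPKM as deposited.

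Set side by side, the D-type genes had a median log2 change of -0.16 over both clones and the E, A and B types a median of 0.61, where the median over all genes tested was -0.03, and the signs of Ccnd2, Ccnd3 and Ccne2 turn with the RPKM as deposited. Of the 3 D-type genes 0 were called by limma and 1, Ccnd2, had an unadjusted p under 0.05, where 3.72% of all genes were lower at that p, or 1100 of 16866 with the replicate block, and with the RPKM as deposited it stood at -0.00 relative to their median. Among the 5 genes of the E, A and B types, Ccnb1 and Ccnb2 reached the minimum only through the KO cells, so no count of calls is set against the D type, and the median is a description that includes both. The median change per pair was -0.19 ± 0.15 for the D type and 0.56 ± 0.23 for the others (SD, n = 4 pairs). In each pair the E, A and B median was above the D median, 0.39 to -0.33 and 0.63 to 0.02 for exon 4, then 0.38 to -0.18 and 0.85 to -0.26 for exon 6. The difference between the types was not tested, since the genes were chosen with results known. As a share of the summed RPKM of the 10 genes, the E, A and B types held 11.9% and 16.5% in KO replicates of the exon 4 clone, then 20.8% and 23.9% for exon 6. In rescue cells they held 4.14% and 7.07% in the exon 4 clone and 4.13% and 4.79% in the exon 6 clone. No KO share overlapped the rescue shares, and the means were 18.3% ± 5.21 in KO and 5.03% ± 1.39 in rescue cells (SD, n = 4 each). Much of this share is Ccna2, with 1.51 of the summed 3.03 RPKM in KO cells, while the mean of Ccne2 was lower in KO cells, with overlapping groups. With Ccna2 left out the shares were 10.2% ± 3.31 in KO and 4.03% ± 1.09 in rescue cells (SD, n = 4 each), and the lowest KO share, 6.34%, lay just above the highest rescue share, 5.55%. Within a library such a share does not depend on scaling, and without the libraries numbered 3 the means were 18.6% and 4.54%. The D-type share was 67.2% ± 6.63 in KO and 82.9% ± 2.99 in rescue cells, and their summed level, 11.3 ± 1.83 against 13.0 ± 1.68 RPKM, overlapped.

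**Figure D4:**
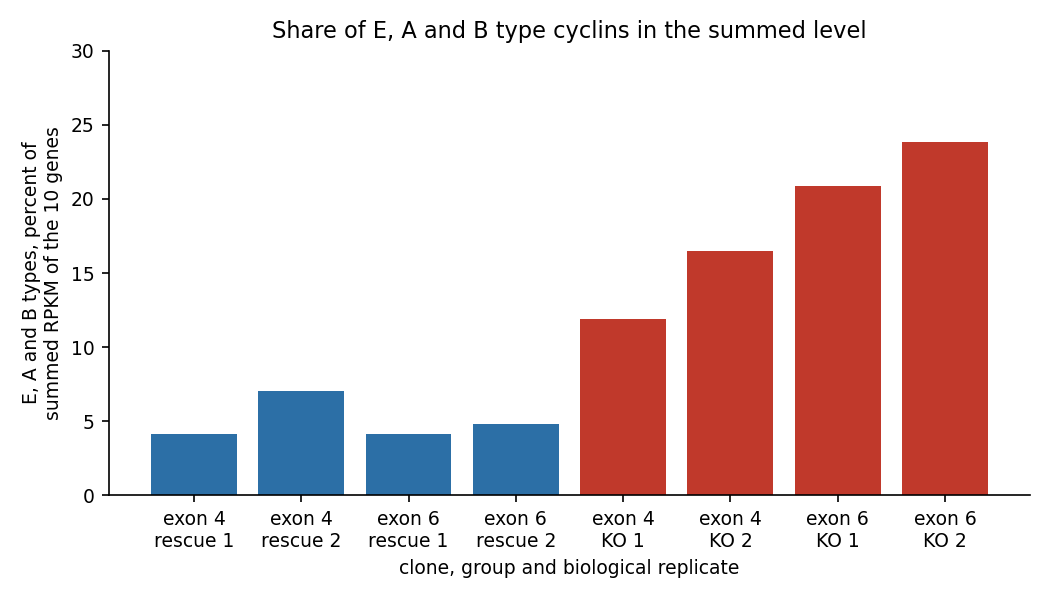
Percent of the summed RPKM of the 10 cyclin genes that the E, A and B types hold in each biological replicate, rescue in blue and KO in red. The rescue bars lie between 4.13% and 7.07% and the KO bars between 11.9% and 23.9%, much of it from Ccna2.

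Whether the KO effect differed between the clones was tested as the exon 6 effect minus the exon 4 effect. Of the 10 cyclin genes 0 passed in limma, and 1, Ccna2, had an unadjusted p under 0.05. Of all genes 0% were called higher and 0% lower, with 434 higher (2.57%) and 251 lower (1.49%) at an unadjusted p under 0.05. For Ccna2 the effect was 0.69 larger on the log2 scale in the exon 6 clone (95% interval from 0.09 to 1.28), which misses the threshold. Its exon 6 KO values were above those of exon 4 and its exon 6 rescue means below, though exon 6 rescue library 3 alone, at 0.308 RPKM, was above both exon 4 rescue values. For Ccnf the difference was 0.00 (standard error 0.22), and for Ccnd2 it was -0.36 (standard error 0.20). Between the clones at the same genotype, 6.84% of all genes were called higher and 6.71% lower in the exon 6 clone, and 0 of the 10 cyclin genes were among them in limma. At an unadjusted p under 0.05 there were 2, Ccnd1 as lower with -0.63 and Ccnf as higher with 0.33, where 17.4% of all genes were lower and 13.4% higher, so that the cyclins did not exceed the background. With the RPKM as deposited 2 were called, Ccnb2 and Ccnf, and the sign of Ccnd1 turns, where the median over all genes shifts from -0.05 to 0.51 and 454 genes were lower and 5799 higher at an unadjusted p under 0.05. Relative to that median Ccnd1 stood at -0.35, Ccnb2 at 0.098 and Ccnf at 0.30. Without exon 4 KO replicate 1 the call was Ccnf at 0.39, and without exon 4 rescue replicate 2 it was Ccnd1 at -0.85.

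CHR elements with CCAAT boxes mark many genes of mitosis, and promoters of cyclins with higher KO values are shown for that reason. RefSeq promoters of GRCm38.p6, 250 bases before to 50 after the start, were given for 6 of the 10 genes, with none for Ccnd1, Ccnd2, Ccne2 and Ccna2. On both strands a CHR was searched as TTTGAA or TTTAAA or TTCGAA or CTTGAA, an NF-Y box as CCAAT and an E2F site as TTTCCCGC or TTTCGCGC or TTTGGCGC or TTTGCCGC. Among all 32851 RefSeq promoters, 37.3% held such a CHR, 37.4% a CCAAT and 2.26% such an E2F word. Of the 6 genes 4 held a CHR word, Ccne1, Ccnb1, Ccnb2 and Ccnf, and 4 held CCAAT, Ccnd3, Ccnb1, Ccnb2 and Ccnf. Ccnb1 and Ccnf held 2 CCAAT boxes each and Ccnb2 held 3. How many of all promoters hold a CHR word and CCAAT together was not counted, so nothing is read from their joint presence. Ccng2 held none of the words, of the 2 promoters of Ccnd3 1 held CCAAT alone, and 0 of the 6 genes held an E2F word. Only those exact E2F words were searched, and 2.26% of all promoters held any, so finding 0 does not show that E2F sites are absent. A match of letters is a description and by itself does not show a binding site. For Ccnb2 the study reports that mutating the CHR of its promoter raised reporter activity in starved wild-type cells. Which of the Ccnb2 words that was, was not examined. The 250 bases before the Ccnb2 start (minus strand, chr9:70421555-70421804, outside annotated exons) follow with CHR words and CCAAT in capitals.
Ccnb2: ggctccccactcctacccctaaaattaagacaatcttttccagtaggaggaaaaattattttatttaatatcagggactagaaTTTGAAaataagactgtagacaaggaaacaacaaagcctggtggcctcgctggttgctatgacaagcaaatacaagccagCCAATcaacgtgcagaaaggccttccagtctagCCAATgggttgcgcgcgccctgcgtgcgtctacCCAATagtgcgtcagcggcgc

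The 30 bases around further CHR words, in capitals, are given by gene. That of Ccnb2 lies just after its start (minus strand, chr9:70421533-70421562). Those of Ccnb1 (minus strand, chr13:100786511-100786540) and Ccne1 (minus strand, chr7:38107488-38107517) lie within an exon of the GENCODE annotation. Of the pair in Ccnf (minus strand), the upstream word lies outside exons (chr17:24251522-24251551) and the other within an exon (chr17:24251406-24251435).
Ccnb2: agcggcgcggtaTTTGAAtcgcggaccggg
Ccnb1: agcggcccggggTTTAAAcctaagcccggc
Ccne1: cgcgctgggattTTTAAAtgtcccgctcga
Ccnf upstream: agacagccagcgTTTGAAttcgcgtcctgg
Ccnf near start: gctcccggcgcgTTTGAAaacggggcgggg

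Genes that work with cyclins were counted in lists, where over all genes tested 1.61% were called higher and 0.083% lower and the median was -0.03. Of 8 kinase partners and their small subunits 3 passed as higher in KO cells and 0 as lower, and the list's median log2 difference was -0.01. Cdk1, a partner of cyclins A2 and B, was 1.19 RPKM in KO against 0.103 RPKM in rescue cells and rose by 1.47 on the log2 scale, and the subunits Cks2 and Cks1b rose by 1.69 and 1.58. Cdk4 and Cdk6, which bind the D type, were 9.98 and 1.37 RPKM in KO against 10.5 and 1.61 RPKM in rescue cells. Cdk2, a partner of cyclin E though not of it alone, was 1.10 and 1.08 RPKM. None of these 3 passed, with log2 changes between -0.18 and 0.02. Of 5 phosphatases and kinases that set the activity of Cdk1 and its relatives, 3 were called higher, Pkmyt1 with a change of 1.86, Cdc25c with 1.49 and Cdc25b with 0.72, of which Cdc25c, at 0.0807 RPKM in rescue cells, reached the minimum only through the KO cells. Of 11 genes of cyclin degradation 2 were called higher, Cdc20 with 2.14 and Ube2c with 1.15, both of the machinery that destroys B-type cyclins. Of 15 tested genes of transcription factors and their partners that control cyclin genes 4 were called higher, Foxm1 with 2.05, Lin54 with 1.24, E2f1 with 1.23 and Lin9 with 0.72. The medians of these lists were 0.72, 0.05 and 0.17. Of 4 tested inhibitors 0 were called, and 0 at an unadjusted p under 0.05 (limma), with a median of 0.26. Cyclins outside the 10, such as those of transcription, gave 0 of 13 called and 0 at an unadjusted p under 0.05 (limma), with a median of -0.01.

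Across the 8 replicates, the genes most like Ccna2 among 7547 with a mean of at least 1 RPKM were Fam111a (Pearson r = 0.992), Chaf1a (0.985) and Anln (0.984), on log2(RPKM + 0.5). For Ccnb1 they were Rangap1 (r = 0.984), Ckap2 (0.982) and Ckap2l (0.978), and for Ccne1 C1qtnf6 (r = 0.928), Pold2 (0.921) and Ruvbl2 (0.915). Ccnd1 was most like Btbd19 (r = 0.977), Gars (0.956) and Exosc5 (0.955). The 4 cyclins had no gene in common among these. The replicates share clones and groups, so these values describe the samples only.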

How the data were processed

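The authors mapped reads to mm10 with segemehl, counted them with rnacounter on GENCODE genes and deposited RPKM. Which reads the library total counts is not stated, and edgeR, which the authors used, needs counts and was not run. Libraries were rescaled by median of ratios over 8523 genes (factors 0.324 to 2.70), and technical replicates were averaged. Genes averaging 0.1 RPKM or more (16866) were tested on log2(RPKM + 0.5) with limma 3.58.1 (eBayes with trend, not robust) in R 4.3.3, with clone as a covariate, or as 4 group means for each clone and for the difference. Benjamini-Hochberg covered all genes tested, with a threshold of 0.05. Python 3.11.15, pandas 2.3.3, numpy 2.4.6 and matplotlib 3.10.9 did the rest. Positions came from GENCODE M21 and promoters from RefSeq.

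Residuals of equally numbered KO and rescue replicates correlated at 0.477 (exon 4) and 0.360 (exon 6) over 7550 genes, so a replicate block was tried, which gave 27 lower genes over both clones. Named are the 10 cyclins, Lin37, Cdk1, Cdk2, Cdk4 and Cdk6, up to 4 called genes of each list with the largest change, the 3 genes most like Ccnd1, Ccne1, Ccna2 and Ccnb1, and genes holding at least 0.5 of a cyclin's 31-base stretches, of which there were 0. Outside this rule, Ccng1, the most abundant markers and genes that share exon bases or a smaller part of their stretches with a cyclin or Lin37 were named after their values were seen. Members and lists were chosen with earlier results of these data known. Alternatives were pseudocounts of 0.1 and 1, no minimum or one of 1 RPKM, no rescaling, quantile normalization, separate technical replicates, no trend, no clone covariate, each clone alone, the block, and leaving out each replicate. Leaving out the libraries numbered 3 was chosen after seeing the data.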

Additional observations from a re-analysis of the deposited data

Results flagged for a closer look

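Of 22 groups of 4 values tested, 10 cyclins and Lin37 in KO and in rescue cells, 1 held a sample far from the others by Dixon's criterion, and chance gives about 1 in 20. It was Lin37 in exon 6 KO replicate 1, at 0.417 RPKM against 0.274, 0.284 and 0.285 RPKM in the other KO replicates. The value is still below each rescue replicate. No cyclin group held such a sample, and the KO effect on none of the 10 cyclins passed the limma test of a difference between the clones.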

How the results depend on the processing

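Of 668 values of single genes under the alternatives, 610 kept their direction and their side of the threshold, 28 lost and 15 gained a call, and 15 changed sign, of which 6 outside the RPKM as deposited. Over both clones the 271 higher genes became 171 with no minimum level, 93 with a minimum of 1 RPKM, 875 with the RPKM as deposited and 174 to 265 on leaving out a replicate. The 14 lower genes became 6 with no minimum, 6 with no clone covariate, 27 with the replicate block and 4 to 16 on leaving out a replicate. In the exon 4 clone 105 calls became 10 with no minimum, 48 with a minimum of 1 RPKM, 26 as deposited, 0 with each clone alone and 14 to 154 on leaving out a replicate. In the exon 6 clone 179 calls became 34, 56 and 501 under the first 3 of these, 304 with technical replicates separate and 1 to 160 on leaving out a replicate. The difference between the clones had 0 calls, and 7 as deposited. The 2286 genes called between the clones became 1039 with no minimum and 1011 to 3091 on leaving out a replicate. Of the cyclins, the 2 called over both clones became 1 with no minimum or no clone covariate, 0 with a minimum of 1 RPKM, under which neither Ccna2 nor Ccnb2 was tested, 5 as deposited, 4 with technical replicates separate and 1 to 2 on leaving out a replicate. The 1 called in the exon 4 clone became 0 with a pseudocount of 0.1, no minimum, a minimum of 1 RPKM, as deposited, each clone alone or any replicate left out. The 1 called in the exon 6 clone became 0 with no minimum or a minimum of 1 RPKM, 3 as deposited or with technical replicates separate, and 0 to 1 on leaving out a replicate. Between the clones 0 cyclins were called, 2 as deposited and 0 to 1 on leaving out a replicate. As deposited, the log2 difference turned to 0.63, 0.81 and 0.45 for Ccnd2 and to 0.43, 0.48 and 0.37 for Ccnd3 (both clones, exon 4, exon 6), and to 0.21 and 0.091 for Ccne2 (both clones, exon 4), and between the clones to 0.16 for Ccnd1. On leaving out a replicate, it ran from -0.38 to 0.80 for Ccnd1, from -0.32 to 0.15 for Ccnd3 and from -0.0076 to 0.22 for Ccng2 in the exon 4 clone, and from -0.018 to 0.078 for Ccne2 in the exon 6 clone. With 1 replicate of an arm left, it is assumed to vary like the other groups. A higher minimum leaves fewer genes, and leaving out a replicate fewer samples; the cause of the other shifts was not tested. Whole reads could not be recovered from the RPKM, so the counting error of the low B-type levels is unknown.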
